A study of Mus musculus with 80 samples.

Results

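The response of mouse lung to 120 ppm styrene was compared between C57Bl/6 WT mice and C57Bl/6 KO mice, whose Cyp2f2 gene is disrupted. The arrays were chosen by title: WT and KO at dose 0 and at 120 ppm, 5 arrays in each of 4 groups, 20 of the 80 arrays of the series. Each held RNA of the whole lung of an adult male (supplier Taconic) that breathed styrene or air for a single period of 6 h, with the lung taken the next morning, and the labels call the arrays of a group biological replicates. The WT 0 ppm and KO 0 ppm groups breathed air only. The other 60 arrays held the 10 and 40 ppm groups of both strains, humanized mice that carry human CYP2F1 (TG), and CD-1 mice. For each gene the quantity described is the difference in response, the WT change (120 ppm minus 0 ppm) minus the KO change, on the log2 scale. It is above 0 where the gene rose more, or fell less, in WT than in KO.

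Styrene is an aromatic solvent that cytochrome P450 enzymes oxidise to reactive products, and CYP2F2 is a P450 made in large amounts by club cells, the secretory cells of mouse bronchioles. Cells that sense foreign nucleic acid or damage release interferons, which act through receptors, JAK kinases and transcription factors to switch on antiviral genes, many of which carry an interferon-stimulated response element near their start. Electrophiles act on another regulator, NRF2, which switches on glutathione and quinone-detoxifying enzymes.

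The deposited values were log2 signals. Array medians lay between 4.53 and 4.59 in the 10 WT arrays and between 4.09 and 4.20 in the 10 KO arrays, and the median over the genes tested of KO air minus WT air was -0.365. Levels are therefore read within a strain. A shift between strains that is equal at both doses cancels in the difference in response, whose median over the 11406 genes tested was 0.0115. One that varies with signal level need not cancel for each gene, and this was not tested. Within groups the arrays correlated at 0.9896 to 0.9966, and no arrays were duplicates. A few air arrays stood apart in single gene groups. The squamous epithelium markers (keratins and cornified envelope genes, 8 measured) averaged 8.55 in WT 0 ppm replicate 1 against 3.48 to 3.54 in the other 4 arrays of that group, and skeletal muscle markers averaged 5.80 there against 3.38 to 3.58. The interferon-inducible GBP and IRG GTPases averaged 8.65 in KO 0 ppm replicate 1 against 7.43 to 7.89 in its group. Results on these lists are also given without both of these arrays.

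**Figure D1:**
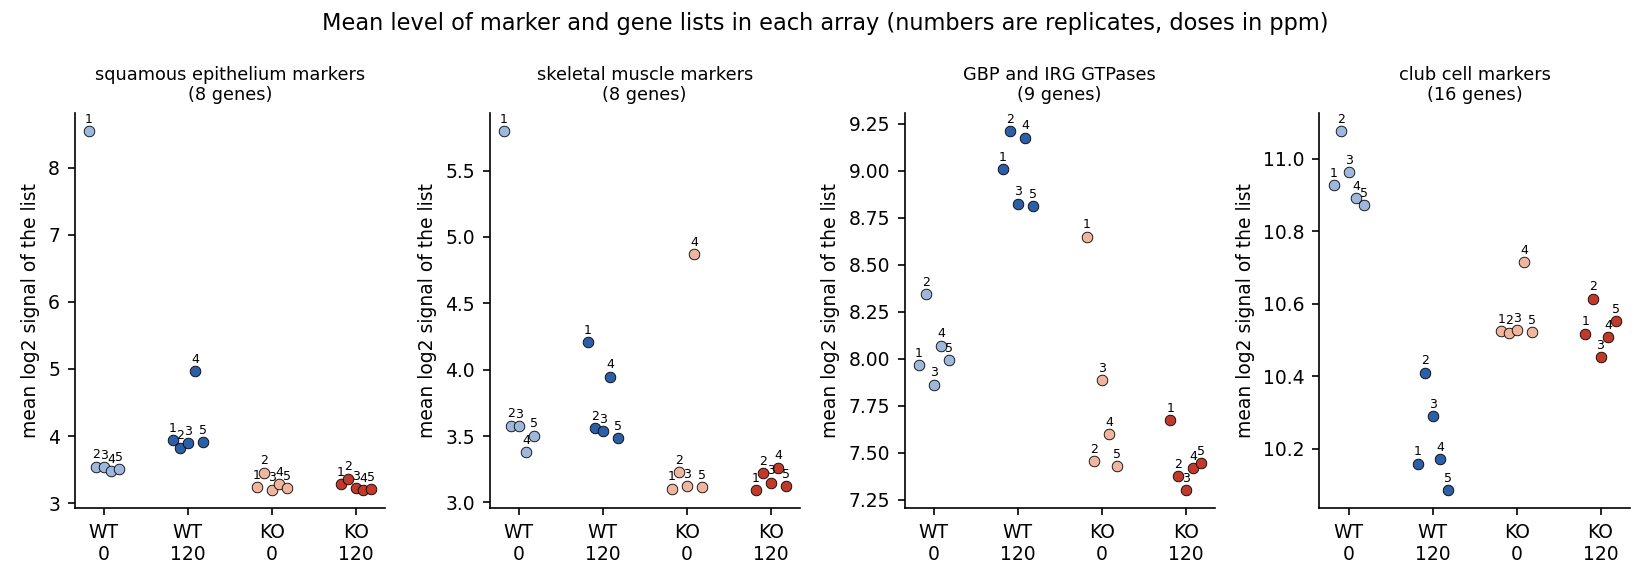
Mean log2 signal of 4 gene lists (vertical axis) in each of the 20 arrays, by strain and dose in ppm (horizontal axis); each point is 1 array and the small number is its replicate. WT 0 ppm replicate 1 stands at 8.55 in squamous markers and KO 0 ppm replicate 1 at 8.65 in the GBP and IRG genes, while the club cell markers are lower in all 5 WT 120 ppm arrays (10.09 to 10.41) than in the WT 0 ppm arrays (10.87 to 11.08).

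The targeted gene was examined first. Cyp2f2 had 1 probe set, and its place relative to the deletion is not stated in the labels. Its signal was 13.20, 13.27, 13.26, 13.21 and 13.22 in the 5 WT 0 ppm arrays and 12.57, 12.72, 12.73, 12.47 and 12.53 at 120 ppm. In KO it was 11.66, 11.60, 11.57, 11.81 and 11.76 in air and 11.55, 11.71, 11.51, 11.89 and 11.51 after styrene. The WT groups did not overlap and the KO groups did. The air means were 13.23 in WT and 11.68 in KO, beside the shift between strains of -0.365 given above. The change was -0.63 in WT and -0.05 in KO, a difference of -0.58 ± 0.10 (standard error, SE, n = 5 arrays per group, limma adjusted p = 0.00078).

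A difference in response was called at an adjusted p under 0.05 (limma, Benjamini-Hochberg) for 1520 of 11406 genes, 13.3% of those tested. Of these, 920 (8.07%) lay above 0 and 600 (5.26%) below 0, and 549 (4.81%) differed by at least 1.5-fold, 367 (3.22%) above 0 and 182 (1.6%) below. The 8.07% and 5.26% are the shares to set beside each list count that follows. The excess above 0 depended on the scaling: with arrays centred on their medians 754 lay above 0 and 660 below, and after quantile normalization 795 and 745. At an unadjusted p under 0.05 there were 3156 genes where 570.3 would fall by chance. Within the same fit, a change after styrene was called for 2833 genes in WT (24.8%), 1708 up and 1125 down (9.86%), and 0 in KO (0.0%). These counts do not stand for the difference in response. Of the 2833 genes called in WT, the difference was called for 1403 (49.5%) and not for 1430. A further 117 called differences were not called in WT. In KO, 776 genes had an unadjusted p under 0.05, and the lowest adjusted p was 0.609. The 5 WT 120 ppm arrays did not overlap the 5 WT air arrays for 2270 genes (19.9%), and the corresponding KO arrays did not overlap for 87 (0.763%).

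The WT and KO changes share no arrays, so they were set against each other. Of 331 genes called up at least 1.5-fold in WT, with a median change of 0.89, the median KO change was -0.04 and the KO change was also upward in 121 (36.6%), where 50% of all genes tested moved upward in KO. For 286 of the 331 (86.4%), the 95% interval of the KO change excluded 50% of the WT change. Of 166 genes called down at least 1.5-fold in WT, with a median of -0.76, the median KO change was 0.0077, the KO change was also downward in 79 (47.6%), and the interval excluded 50% of the WT change for 126 (75.9%). Smaller WT changes were less resolved. Over all 1708 genes called up in WT the interval excluded 50% of the change for 949 (55.6%), and over all 1125 called down for 605 (53.8%).

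**Figure D2:**
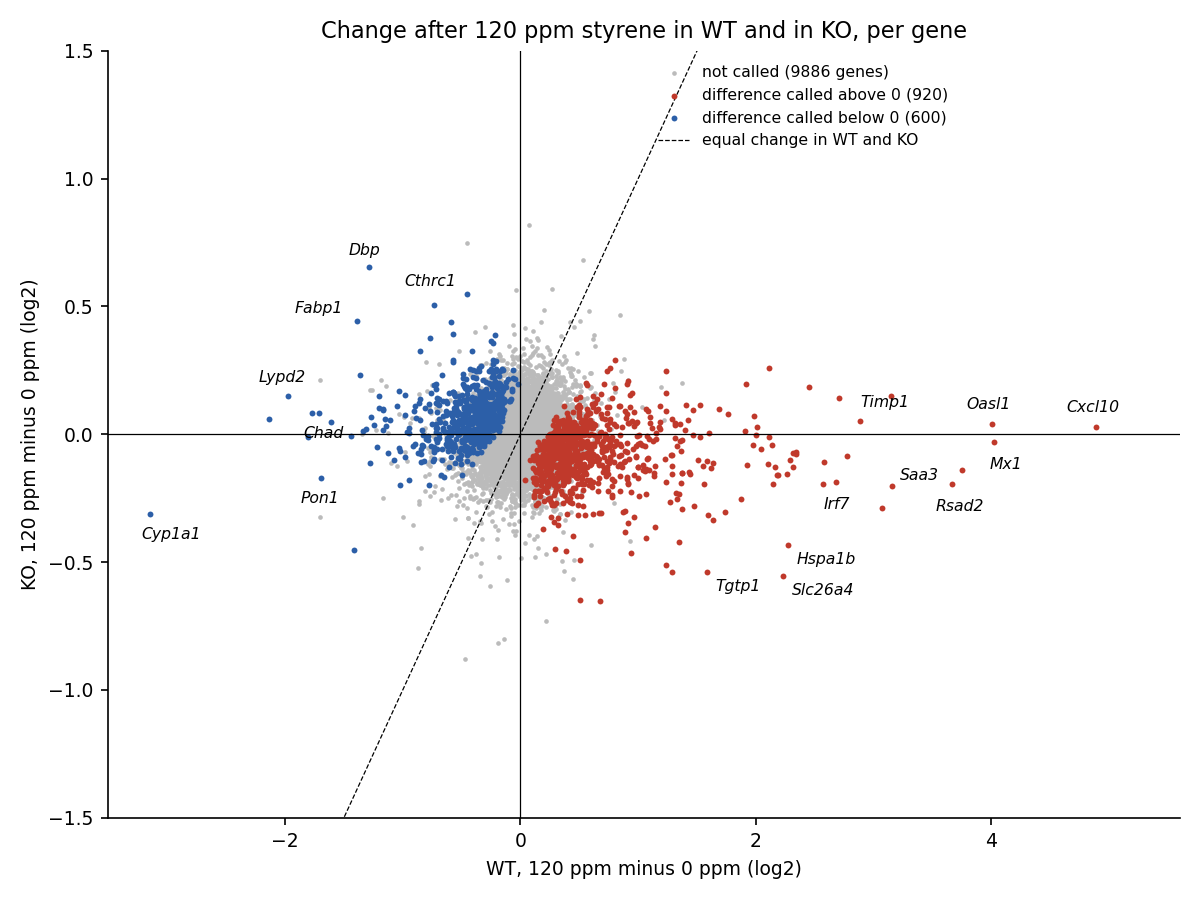
Change from 0 to 120 ppm in WT (horizontal axis, log2) against the change in KO (vertical axis, log2) for 11406 genes, 1 point per gene, from the means of 5 arrays per group. Genes whose difference was called lie to the right (920, red) or left (600, blue) along the horizontal axis, from Cyp1a1 to Cxcl10, while the KO change reached at most 0.65 in size among them, and the dashed line marks equal change in both strains.

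Interferon-induced genes were among the largest differences called. Cxcl10, a chemokine that draws activated T cells through CXCR3, read 4.29, 3.58, 3.53, 3.59 and 3.33 in WT 0 ppm arrays and 8.98, 8.78, 7.96, 8.94 and 8.08 in WT 120 ppm arrays. In KO it read 3.92, 3.58, 3.96, 3.35 and 3.74 in air and 3.68, 3.62, 3.85, 3.58 and 3.98 after styrene. The KO groups overlapped. All KO arrays and 4 of the 5 WT air arrays lay under 4.28, the level minimum used to filter genes, whereas every exposed WT array lay above every air array. The difference in response was 4.86 ± 0.28 (adjusted p = 3.4e-10), a size of 29.0-fold against a signal near the bottom of the scale, and the 95% interval of the KO change ran from -0.38 to 0.44. Because Cxcl10 was under 4.28 on average in WT air and in both KO groups, its call is not used as support. A fall in KO could not have been read. Mx1, a GTPase that blocks viral replication, followed with 4.05 ± 0.18 and Oasl1, a relative of the oligoadenylate synthetases, with 3.96 ± 0.19. Mx1 and Oasl1 were likewise under 4.28 on average outside exposed WT. Mx1 stood at 3.85 to 4.63 in WT air and 7.95 to 8.56 in exposed WT, and in KO at 3.46 to 3.59 and 3.44 to 3.62. Rsad2 (viperin), an antiviral enzyme of the endoplasmic reticulum, was measured well above the bottom of the scale in every group. It read 6.53 to 7.60 in WT air, 10.42 to 11.04 in exposed WT, 6.67 to 7.32 in KO air and 6.63 to 6.94 in exposed KO, and its difference was 3.86 ± 0.24.

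Of 22 antiviral effector genes tested, 21 were called above 0 and 0 below, against 8.07% and 5.26% of all genes. Of the 21, Mx1, Mx2 and Oasl1 were under 4.28 on average in WT air and in both KO groups, so these 3 calls add no support to the count. Over the 24 measured, the median difference was 2.05, from a median change of 2.00 in WT and -0.08 in KO, and the median over all 17097 genes measured was 0.0054. Ifit1, which binds foreign RNA, had a difference of 3.35 ± 0.19, and Isg20, an exonuclease, 0.79 ± 0.11. The member that was not called was Ifi27l2a, at -0.14 ± 0.26 (adjusted p = 0.78). It was also the one member with no rise in WT, where its change was -0.10. Isg20 and Ifi27l2a were named after their values were seen. Several of these genes have near-identical relatives (Ifit1 and Ifit1bl1, the Oas genes, Apol9a), and their probe sets may share signal.

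The promoters of the largest differences above 0 are shown because many hold the letters of the interferon-stimulated response element. Of the 15 genes with the largest differences above 0, 11 were in the RefSeq promoter table (GRCm38.p6, 250 bases before to 50 after the start). The core of the element (GAAA, then any pair of bases, then GAAA), searched on both strands, was found in 7 of them (63.6%), in 0 of the 12 found among the 15 largest differences below 0, and in 3.69% of the 9205 tested genes with a promoter. Over all 920 genes called above 0 it was found in 60 of 755 promoters (7.95%), and over the 600 called below 0 in 20 of 465 (4.3%). Stretches before the start of 4 of them follow, 5′ to 3′ on the strand of the gene, with the core in capitals. They are from Cxcl10 (chr5:92349058-92349137, minus strand), Rsad2 (chr12:26456528-26456607, minus strand), Ifit1 (chr19:34640750-34640848, plus strand) and Apol9a (chr15:77411089-77411174, minus strand).
Cxcl10: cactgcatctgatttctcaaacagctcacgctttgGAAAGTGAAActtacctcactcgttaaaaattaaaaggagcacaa
Rsad2: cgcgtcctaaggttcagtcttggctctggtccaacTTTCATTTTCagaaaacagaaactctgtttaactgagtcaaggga
Ifit1: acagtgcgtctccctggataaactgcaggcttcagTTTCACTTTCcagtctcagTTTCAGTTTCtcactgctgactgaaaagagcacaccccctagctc
Apol9a: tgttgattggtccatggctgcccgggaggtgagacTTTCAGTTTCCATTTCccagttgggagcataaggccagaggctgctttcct
Ifit1 and Apol9a each held 2 matches, which overlap in Apol9a. Irf7, Oasl1, Timp1 and Hspa1b held none in this window. A match describes the letters only, and no binding was measured here.

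Of 11 sensors and adaptors tested, 8 were called above 0 and 1 below. They included Dhx58 (LGP2) at 2.42 ± 0.17, Ddx58 (RIG-I) at 1.07 ± 0.10 and Ifih1 (MDA5) at 1.18 ± 0.11, all cytosolic RNA sensors, and Tlr3, an endosomal one, at 0.76 ± 0.10. The one called below 0 was Tlr7, an endosomal receptor for single-stranded RNA, at -0.60 ± 0.16, with changes of -0.36 in WT and 0.25 in KO (named after its value was seen). Of 14 receptors, kinases and transcription factors tested, 4 were called above 0 and 0 below. Irf7, the factor that amplifies interferon output, read 6.15, 5.67, 5.81, 5.81 and 6.11 in WT air and 8.74, 8.80, 8.41, 8.70 and 8.29 in exposed WT. The KO arrays read 5.23, 4.74, 4.63, 4.88 and 4.55 in air and 4.49, 4.49, 4.81, 4.91 and 4.41 after styrene, without separation. Its difference was 2.87 ± 0.19, that of Stat2 1.54 ± 0.14, that of Irf9 0.81 ± 0.16 and that of Ifngr1, a chain of the interferon gamma receptor, 0.36 ± 0.09. The list's median difference was -0.0041, and the type I receptor chains Ifnar1 and Ifnar2 stood at -0.06 ± 0.12 and -0.14 ± 0.08. No interferon gene was among the genes tested: 3 were measured and all lay too low.

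**Figure D3:**
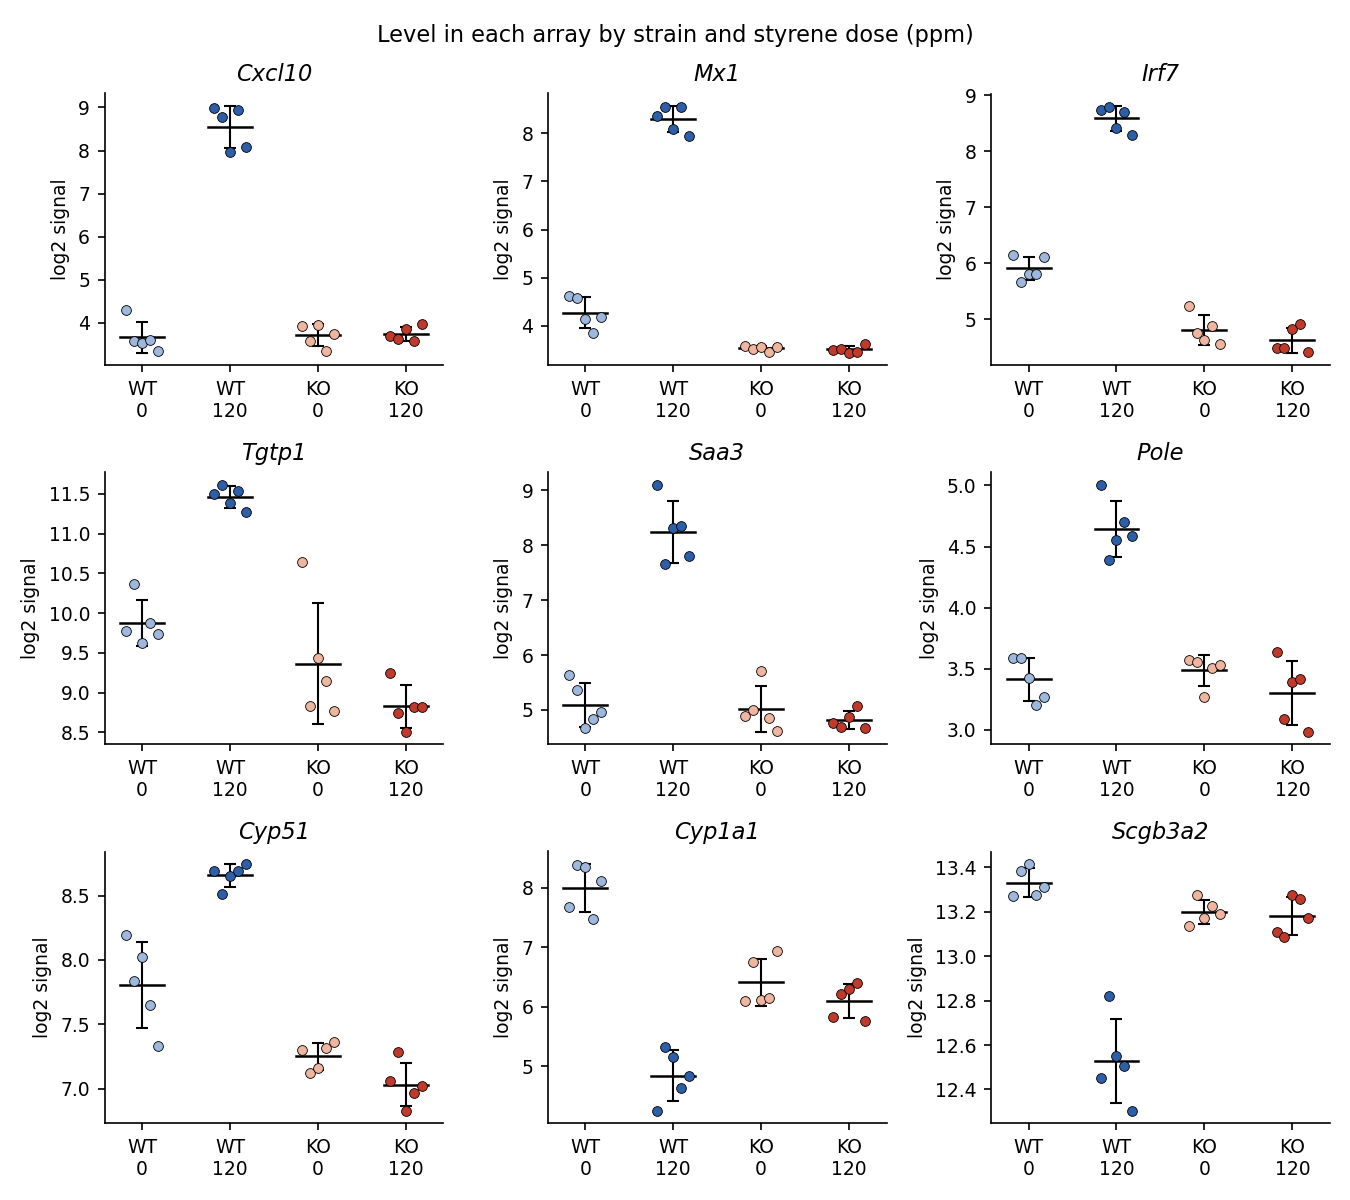
Log2 signal (vertical axis) of 9 genes in each of 20 arrays, by strain and dose in ppm; each point is 1 array, the long bar the mean and the error bar 1 SD of 5 arrays. In the first 7 panels the WT 120 ppm arrays lie above every WT 0 ppm array, in Cyp1a1 and Scgb3a2 below, and the KO groups overlap in every panel.

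The GBP and IRG GTPases are interferon-gamma-inducible proteins that attack intracellular vacuoles. Of 8 tested, 7 were called above 0 and 0 below. Tgtp1 read 9.78, 10.37, 9.63, 9.87 and 9.73 in WT air and 11.49, 11.61, 11.39, 11.53 and 11.27 in exposed WT, with no overlap. KO values were 10.65, 8.83, 9.43, 9.15 and 8.78 in air and 9.25, 8.74, 8.51, 8.82 and 8.82 after styrene, where KO 0 ppm replicate 1 stood above the rest. Its difference was 2.12 ± 0.35 (adjusted p = 0.00036), from 1.58 in WT and -0.54 in KO. Irgm1 had a difference of 1.76 ± 0.20, Iigp1 1.97 ± 0.32 and Igtp 1.82 ± 0.35. In KO 0 of the 8 were called, and the median KO change was -0.42, and -0.20 without KO 0 ppm replicate 1. Without that array and WT 0 ppm replicate 1 together, 6 of the 8 were still called above 0, with Tgtp1 at 1.78 and Igtp at 1.48. Of 11 MHC class I presentation genes tested, 3 were called above 0: Nlrc5, the transactivator of the class I genes, at 1.74 ± 0.33, the immunoproteasome subunit Psmb8 at 0.56 ± 0.16 and the proteasome activator Psme2 at 0.24 ± 0.07. Nlrc5 was also highest in KO 0 ppm replicate 1, at 7.37 against 5.63 to 6.50 in its group. The class I heavy chains H2-K1 and H2-D1 stood at 0.05 ± 0.12 and 0.18 ± 0.15. Psme2 lost its call when arrays were centred on their medians (adjusted p = 0.0607) and without KO 0 ppm replicate 1 (adjusted p = 0.0533), and Psmb8 when all probe sets of a gene were averaged (adjusted p = 0.102).

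Several chemokines had differences above 0. Ccl2, the main ligand of the monocyte receptor CCR2, read 4.12, 3.80, 3.54, 3.93 and 3.79 in WT air and 6.18, 5.83, 5.89, 5.67 and 5.53 in exposed WT. In all 10 KO arrays it lay between 2.92 and 3.16. Its difference was 1.91 ± 0.15 (adjusted p = 2.6e-08), that of Ccl12 2.56 ± 0.21 and that of Ccl7 2.12 ± 0.22, both of them CCR2 ligands as well. Il6, the cytokine that drives the acute phase response, had a difference of 1.68 ± 0.19 at low signal, 2.83 to 3.07 in WT air and 4.25 to 5.19 in exposed WT. Cxcl1, a neutrophil attractant, stood at 1.08 ± 0.22, and Il1b at 0.16 ± 0.33, not called. In all, 5 of the 10 genes tested in this group were called above 0 and 0 below, all 5 of them under 4.28 on average in every group but exposed WT. With every other group that low, their count is no support. A stricter filter (above 4.28 in at least 10 of the 20 arrays) left none of the 5 in the test. Cxcl1 and Il1b were named after their values were seen. The neutrophil markers S100a8 and S100a9 did not pass, at -0.12 ± 0.42 and -0.19 ± 0.45, and 1 of 8 neutrophil markers tested was called above 0, Mmp8, at 0.60 ± 0.16, whose call ended with all 40 WT and KO arrays in the fit (adjusted p = 0.0677).

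Of 13 genes of the acute phase and IL-6 pathway tested, 8 were called above 0 and 0 below. Of the 8, Saa1 was under 4.28 on average in WT air and in both KO groups, so its call adds no support to the count. Saa3, a serum amyloid made in the lung itself, read 5.64, 5.36, 4.67, 4.84 and 4.96 in WT air and 9.10, 7.66, 8.32, 8.34 and 7.80 in exposed WT. In KO it read 4.90, 5.00, 5.71, 4.85 and 4.62 in air and 4.76, 4.69, 4.87, 5.07 and 4.68 after styrene, where the groups overlapped, unlike those of WT. The difference was 3.36 ± 0.33 (adjusted p = 7.2e-07), a size of 10.2-fold. Lrg1, a secreted glycoprotein, had a difference of 2.12 ± 0.22, Lcn2, which binds bacterial iron carriers, 1.68 ± 0.19, and Socs3, a feedback inhibitor of IL-6 signalling, 1.29 ± 0.16. Haptoglobin (Hp), which club and liver cells secrete, stood at -0.13 ± 0.10 and was not called.

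DNA replication genes were called above 0 in 21 of 28 tested and below 0 in none, with a median difference of 0.68 over the genes measured. Of the 21, Mcm10, Cdc6 and Pole were under 4.28 on average in every group but exposed WT, so these 3 calls add no support to the count. Under the stricter filter 16 were called. Pole, the catalytic subunit of a replicative polymerase, read 3.58, 3.59, 3.42, 3.21 and 3.27 in WT air and 5.00, 4.39, 4.56, 4.70 and 4.58 in exposed WT. The KO arrays read 3.58, 3.56, 3.27, 3.50 and 3.53 in air and 3.64, 3.09, 3.39, 3.41 and 2.98 after styrene, again overlapping. Its difference, between signals mostly under the level minimum, was 1.42 ± 0.17 (adjusted p = 9.3e-06). Gins2, part of the replicative helicase, had a difference of 1.10 ± 0.11, Cdt1, which loads the helicase, 0.84 ± 0.12, and the helicase subunit Mcm4 0.60 ± 0.07. Among mitosis genes, 5 of 15 tested were called above 0 and 0 below, with Top2a at 1.23 ± 0.27, Ccna2 at 1.01 ± 0.25 and Cdk1 at 1.16 ± 0.31. Without WT 0 ppm replicate 1 and KO 0 ppm replicate 1 only 3 of the 15 were called. E2F sites (TTTGGCGC or TTTCCCGC on both strands) were found in 9 of 24 promoters of the replication list (37.5%) and in 3.26% of the promoters of all genes tested.

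Of 19 NRF2 and glutathione genes tested, 9 were called above 0 and 0 below. Nqo1, a quinone reductase, read 5.83, 5.40, 5.44, 5.17 and 5.34 in WT air and 6.47, 6.57, 6.55, 6.65 and 6.55 in exposed WT. KO values lay between 4.00 and 4.38 in all 10 arrays, so the KO level was near the level minimum of 4.28 that the filter used. The difference was 1.09 ± 0.13 (adjusted p = 1.1e-05). Hmox1, which degrades haem, had a difference of 1.59 ± 0.23, Gclc, the catalytic subunit of the enzyme that limits glutathione synthesis, 0.64 ± 0.07, and Txnrd1, a thioredoxin reductase, 0.51 ± 0.09. Nfe2l2, which encodes NRF2, stood at -0.10 ± 0.09 and was not called. The antioxidant response element core TGACNNNGC, searched on both strands, lay in 8 of 15 promoters of this list (53.3%) and in 16.9% of those of all genes tested.

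Other stress lists held fewer calls. Over all genes 8.07% were called above 0 and 5.26% below, and counts of 1 or 2 are not read as results about a list. Of 18 genes of the unfolded protein response and ATF4 pathway, 6 were called above 0, led by Atf3 at 1.51 ± 0.17, and 1 below 0, Herpud1 at -0.30 ± 0.09 (named after its value was seen). The ER chaperone Hspa5 stood at 0.36 ± 0.09. Of 9 heat shock genes 1 was called, Hspa1b, an inducible HSP70, at 2.70 ± 0.46. It read 9.57, 9.04, 9.23, 7.30 and 7.64 in WT air and 10.38, 10.71, 10.91, 11.09 and 11.03 in exposed WT, with the air arrays of WT in separate clusters. In KO it read 7.03, 7.32, 7.75, 7.54 and 6.98 in air and 6.52, 7.29, 7.01, 6.84 and 6.79 after styrene. Of 12 immediate early genes 5 were called above 0, among them Myc at 0.59 ± 0.11 and Egr1 at 1.18 ± 0.29. With all 40 WT and KO arrays in the fit 3 were, and Egr1 was not (adjusted p = 0.0851). Of 13 p53 targets, 2 were called above 0 (Cdkn1a, a brake on the cell cycle, at 0.97 ± 0.24 and Aen) and 2 below 0 (Trp53inp1 and Sesn1), and the calls of Aen and Sesn1 were lost when single arrays were left out. Without both air arrays that stood apart 2 of the 13 were called. Mdm2, the p53 ligase, stood at 0.03 ± 0.09.

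Sterol synthesis and uptake genes were called above 0 in 13 of 17 tested and below 0 in none, with a median difference of 0.60. Cyp51, the lanosterol demethylase, read 8.19, 7.84, 8.02, 7.65 and 7.34 in WT air and 8.69, 8.51, 8.65, 8.69 and 8.74 in exposed WT. The KO readings were 7.30, 7.12, 7.17, 7.31 and 7.37 in air and 7.06, 7.28, 6.83, 6.97 and 7.02 after styrene. The WT groups did not overlap, whereas the KO groups did, and the difference was 1.07 ± 0.17 (adjusted p = 0.00018). Hmgcs1 and Sqle, which act early in the pathway and at its first oxygenation, had differences of 0.88 ± 0.13 and 0.74 ± 0.10, and Nsdhl 0.49 ± 0.08. Hmgcs1 was under 4.28 on average in every group but exposed WT. Srebf2, the regulator of the pathway, stood at 0.22 ± 0.15. In contrast to these counts, 0 of 9 fatty acid synthesis genes were called above 0 and 1 below, the desaturase Scd1, at -0.23 ± 0.07, whose call was lost in 14 of 20 fits that left out 1 array.

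**Figure D4:**
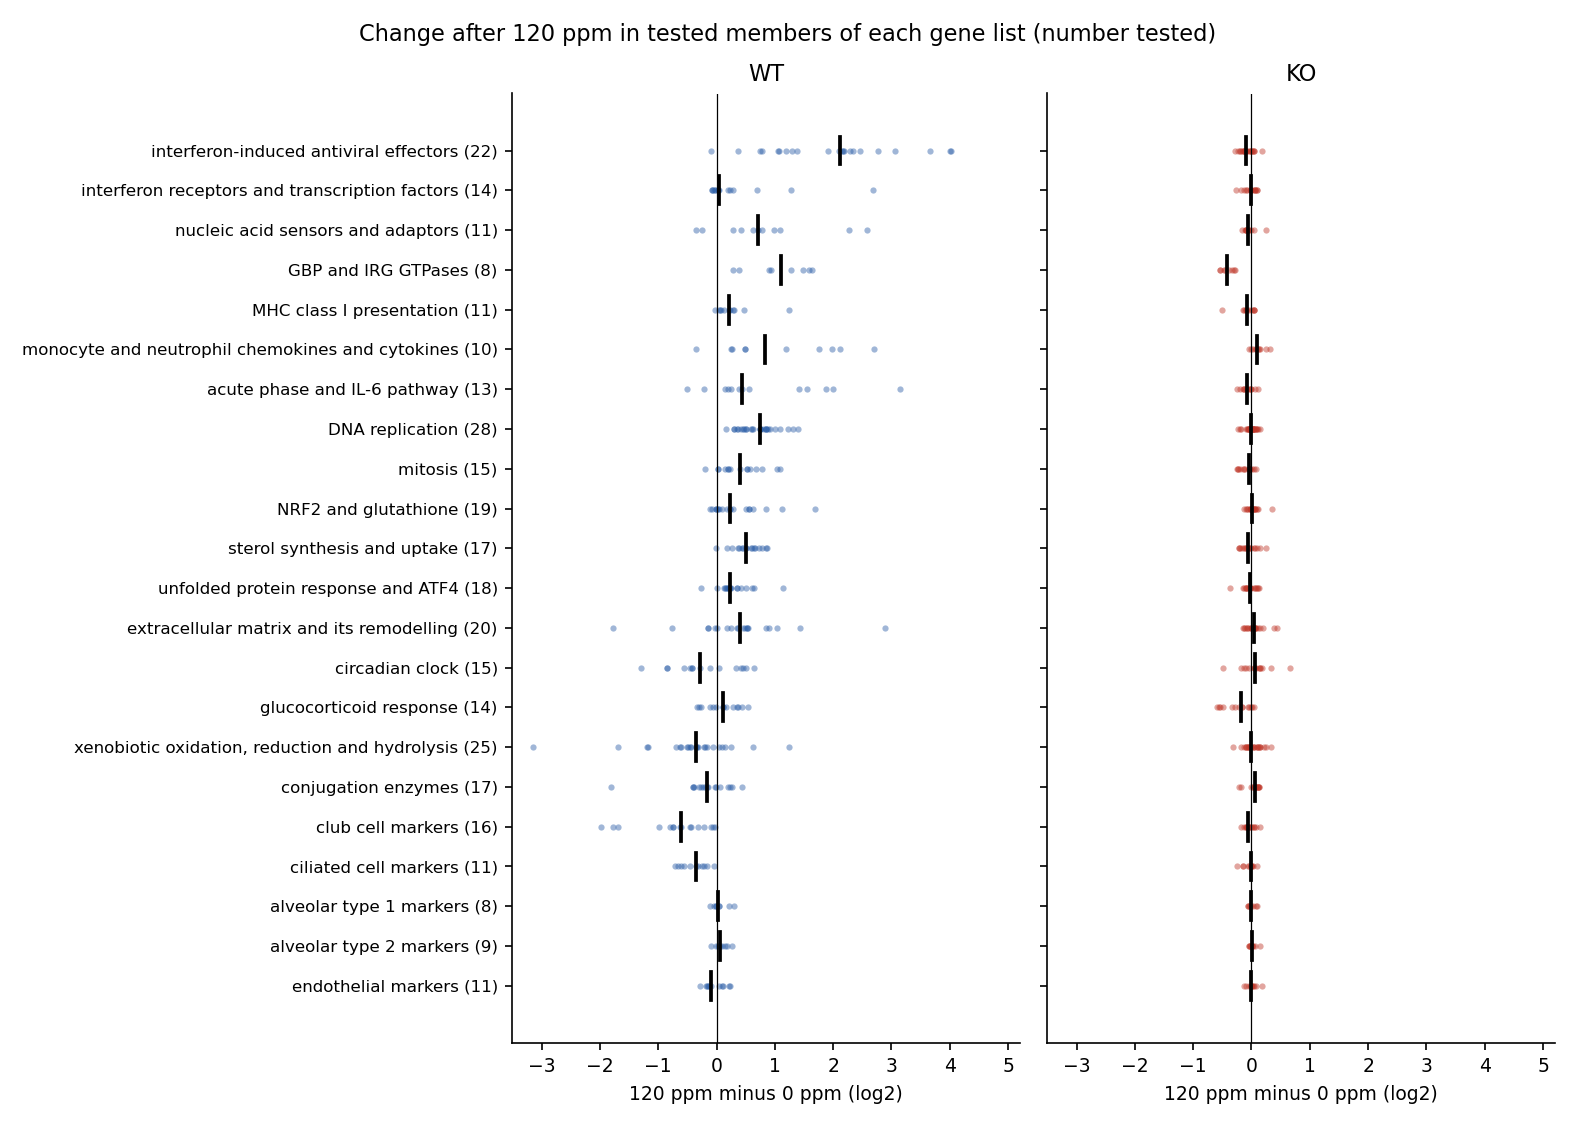
Change from 0 to 120 ppm (horizontal axis, log2) in WT (left) and KO (right) for the tested members of 22 gene lists; each point is 1 gene and the black bar the median of the list, with the number of genes tested in parentheses. WT medians range from above 2 for antiviral effectors to below 0 for club cell markers, while the KO median of the GBP and IRG genes is -0.42.

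Many enzymes of xenobiotic metabolism had differences below 0. Of 25 oxidation, reduction and hydrolysis enzymes tested, 13 were called below 0 and 2 above, against 5.26% and 8.07% of all genes, with a median difference of -0.33. Cyp1a1, a P450 induced through the aryl hydrocarbon receptor, had the largest difference below 0 of all genes called. It read 7.68, 8.38, 8.34, 7.47 and 8.11 in WT air and 4.26, 5.33, 5.16, 4.64 and 4.85 in exposed WT. In KO the signal was 6.09, 6.75, 6.12, 6.16 and 6.93 in air and 5.82, 6.21, 6.31, 6.40 and 5.76 after styrene. The WT groups were far apart and the KO groups overlapped, and the difference was -2.84 ± 0.31 (adjusted p = 2.6e-06), a size of 7.16-fold. Other genes of the aryl hydrocarbon receptor list were not called below 0: Cyp1b1 stood at -0.14 ± 0.16, Tiparp at 0.02 ± 0.12 and Ahr at -0.07 ± 0.13, none called, and Nqo1 rose as described.

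Other enzymes fell in WT with small KO changes. The aldehyde oxidase Aox3 had a difference of -1.26 ± 0.13, the paraoxonase Pon1 -1.52 ± 0.20 and the carboxylesterase Ces1d -0.68 ± 0.08. Pon1 read 10.42 to 10.68 in WT air, 8.62 to 8.97 in exposed WT, 9.79 to 10.30 in KO air and 9.31 to 10.25 in exposed KO. For Ces1f the KO arrays lay between 2.94 and 3.52 in both groups, below the level minimum of 4.28, so that a fall in KO could not have been read, and its difference of -1.35 ± 0.32 rests on WT. This held for 24 of the 600 genes called below 0, whose mean in KO air was under that minimum. Among the 920 genes called above 0, the WT air mean was under it for 70 and the KO air mean for 119, so the sizes of those differences rest on signals near the bottom of the scale. The Ces1 genes are close relatives and may share probes, and Ces1g was called in the opposite direction, at 1.15 ± 0.19. The microsomal epoxide hydrolase Ephx1, which hydrates styrene oxide, stood at -0.71 ± 0.10, with changes of -0.49 in WT and 0.22 in KO. Of 17 conjugation enzymes 7 were called below 0 and 0 above, with the glutathione transferases Gstt1, Gstm1 and Gstm2 at -0.52 ± 0.10, -0.47 ± 0.09 and -0.37 ± 0.09. With all 40 WT and KO arrays in the fit 4 of the 17 were called, and without the 2 air arrays that stood apart 3 were.

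Club cell markers were called below 0 in 10 of 16 tested and above 0 in none, with a median difference of -0.54. Scgb3a2, a secretoglobin of bronchiolar cells, read 13.27, 13.38, 13.42, 13.28 and 13.31 in WT air and 12.45, 12.82, 12.55, 12.51 and 12.30 in exposed WT. KO values were 13.14, 13.27, 13.17, 13.23 and 13.19 in air and 13.11, 13.09, 13.28, 13.26 and 13.17 after styrene. The WT groups did not overlap and the KO groups did, and the difference was -0.78 ± 0.10 (adjusted p = 2.4e-05). Lypd2 had a difference of -2.13 ± 0.34, Chad -1.85 ± 0.33, the cholecystokinin receptor Cckar -0.89 ± 0.10 and the carbonyl reductase Cbr2 -0.49 ± 0.07. Scgb1a1, the most abundant secretory protein of these cells, stood at -0.10 ± 0.06 (adjusted p = 0.31), and Nkx2-1, a lung epithelial transcription factor, at 0.04 ± 0.14. Both were named after their values were seen, and some members (Cyp2f2, Pon1, the aldehyde dehydrogenases) are also on the xenobiotic list. In whole lung, fewer cells of a type and less RNA per cell cannot be told apart. The xenobiotic genes and these markers moved together, and the part of the one in the other was not tested.

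Among the other cell types, 3 of 11 ciliated cell markers were called below 0 and 0 above: Tppp3 at -0.45 ± 0.09, Ccdc153 at -0.67 ± 0.14 and Cdhr3 at -0.80 ± 0.18. With all 40 WT and KO arrays in the fit Cdhr3 was not called (adjusted p = 0.0522), leaving 2 of 11. Foxj1, the transcription factor that defines these cells, stood at -0.07 ± 0.20. Airway mucus and secretion genes varied widely between arrays, and 0 of 11 were called (median difference -0.68). Of 8 alveolar type 1 and 11 endothelial markers 0 were called, and of 9 alveolar type 2 markers 1, the collectin Sftpd, at 0.30 ± 0.07. Beside 8.07% of all genes called above 0 and 5.26% below, counts of 1 or 2 here are not read as results about a cell type. Of 12 macrophage and monocyte markers 1 was called above 0, the scavenger receptor Msr1 at 1.16 ± 0.21 (under 4.28 on average outside exposed WT), and 2 below, Siglecf, a marker of alveolar macrophages, at -0.96 ± 0.19 and Adgre1 at -0.39 ± 0.10, whose call ended with all 40 arrays in the fit (adjusted p = 0.0599). Siglecf read 7.00 to 7.46 in WT air, 5.85 to 6.39 in exposed WT, 6.95 to 7.24 in KO air and 6.61 to 7.36 in exposed KO. Other macrophage markers did not share its fall alike. Marco stood at 0.14 ± 0.18, Chil3 at 0.17 ± 0.09, Mrc1 at -0.04 ± 0.15, Fabp4 at -0.47 ± 0.73 and Krt79 at -0.59 ± 0.26, none called. The list's median difference was 0.11. These members were named after their values were seen. Of 6 B cell markers 0 were called, and of 10 T and NK cell markers 1, Cd8a, at -0.35 ± 0.10. That call was lost with all 40 arrays (adjusted p = 0.129), with probe sets averaged (-0.09, adjusted p = 0.676), with a trended robust prior (adjusted p = 0.0617), and without KO 0 ppm replicate 1 or WT 0 ppm replicate 2. Among the squamous, basal, skeletal muscle, cardiac muscle, adipose, mesothelial and erythroid markers, 0 were called. Without both air arrays that stood apart 1 was, Sprr1a, a cornified envelope protein, at 1.89 ± 0.36 (adjusted p = 0.00218), against 1.17 ± 0.71 (adjusted p = 0.305) with all 20 arrays.

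Calml3 and Sult1d1, with differences of -2.20 ± 0.67 and -1.79 ± 0.52, were the least certain of the 15 largest differences below 0. Calml3, a calmodulin-like protein of epithelia, read 8.98, 7.18, 7.14, 5.39 and 6.76 in WT air and 4.74, 5.69, 5.08, 5.27 and 4.00 in exposed WT, with overlap. Its value was highest in WT 0 ppm replicate 1, the array with squamous markers. Its difference was -1.55 (adjusted p = 0.0813) without that array and KO 0 ppm replicate 1. Its call was lost in 10 of 20 fits that left out 1 array, at an adjusted p up to 0.067, and that of Sult1d1, a sulfotransferase, in 5. With all 40 WT and KO arrays in the fit both calls were lost (adjusted p = 0.151 for Calml3 and 0.11 for Sult1d1). Calml3 also lost its call with a replicate block (adjusted p = 0.0553) and with a trended robust prior (0.06). Without both air arrays Sult1d1 lost its call as well (0.0622). Mycl, a MYC family factor, and Slc4a5, a bicarbonate transporter, were tighter. Mycl read 6.01 to 6.39 in WT air, 4.06 to 4.62 in exposed WT and 5.52 to 5.94 in all KO arrays, and its difference was -1.79 ± 0.14. That of Slc4a5 was -1.43 ± 0.09.

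Of 15 clock genes 5 were called below 0, against 5.26% of all genes, and 2 above, a share near the 8.07% of all genes. Dbp, an output factor of the circadian clock, read 8.14, 7.16, 7.57, 8.01 and 6.91 in WT air and 5.75, 6.34, 6.71, 6.17 and 6.39 in exposed WT. The KO readings were 6.45, 6.89, 7.79, 7.71 and 7.65 in air and 7.07, 7.22, 8.16, 8.69 and 8.62 after styrene, and in both KO groups replicates 1 and 2 were lower than the rest. Its difference was -1.94 ± 0.47 (adjusted p = 0.0086), from -1.29 in WT and 0.65 in KO. Hlf, Tef and Nr1d2, also peaking with Dbp, had differences of -1.18 ± 0.23, -0.62 ± 0.14 and -0.70 ± 0.17, and Arntl (BMAL1), which peaks opposite to them, 1.00 ± 0.26. Arntl in KO was likewise higher in replicates 1 and 2 of both groups, at 6.28 and 6.43 in air and 5.95 and 6.17 after styrene, than in the others (5.68 to 5.93 and 5.13 to 5.27). The hour at which each animal was killed is not given in the labels, and its part was not tested. Of 14 glucocorticoid response genes 1 was called, Cdkn1c, at 0.53 ± 0.13. Beside 8.07% of all genes called above 0 and 5.26% below, this count and the next are not read as results about a list. Of 13 PPAR and fatty acid oxidation genes 2 were called above 0 and 2 below. The latter were Fabp1, a fatty acid carrier, at -1.83 ± 0.19, and the peroxisomal thiolase Acaa1b at -1.21 ± 0.19. The KO interval of Fabp1 lay away from 0, at 0.16 to 0.73 for a KO change of 0.44.

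Among extracellular matrix genes, 6 of 20 tested were called above 0 and 1 below, against 8.07% and 5.26% of all genes. Timp1, an inhibitor of matrix metalloproteinases, read 7.03, 6.50, 6.22, 6.49 and 6.50 in WT air and 10.13, 9.12, 9.46, 9.36 and 9.09 in exposed WT. In KO the signal was 5.96 to 6.38 in air and 6.05 to 6.68 after styrene, with overlap. The difference was 2.83 ± 0.25 (adjusted p = 1.4e-07), a size of 7.13-fold. Tenascin C (Tnc) had a difference of 1.58 ± 0.28 and the collagen crosslinker Lox 0.96 ± 0.19, whereas the fibrillar collagen genes Col1a1 and Col3a1 stood at -0.04 ± 0.31 and -0.04 ± 0.19. Fst (follistatin), which binds activins, had a difference of 2.76 ± 0.39, and Acta2, the smooth muscle actin, 1.12 ± 0.22. Acta2 was the 1 of 9 fibroblast and mesenchymal markers tested that was called above 0. Another, Dpt, was called below 0, at -0.30 ± 0.09, and lost its call in 12 of 20 fits that left out 1 array. These counts are not read as results about a cell type.

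The KO change itself was examined among the 1520 called genes, where selection on the difference favours KO changes opposite to those of WT. The KO change lay within 0.25 of 0 for 862 of the 920 genes above 0 (93.7%) and for 572 of the 600 below 0 (95.3%). That share was not counted over all genes tested, whose KO change had a median SE of 0.0829. It is therefore not read as a trait of the called genes. The KO change had an unadjusted limma p under 0.05 for 132 of the 920, 125 of them opposite to WT. The same held for 83 of the 600, 80 of them opposite, and for 776 of all 11406 genes. The largest KO changes were those of Gbp10 and Map3k6, both at -0.65, Dbp at 0.65, the anion exchanger Slc26a4 at -0.56 and Cthrc1, a secreted matrix protein, at 0.55. Map3k6, a stress-activated kinase, read 6.50 to 6.89 in KO air and 5.63 to 6.27 in exposed KO without overlap, and 6.18 to 7.70 and 7.09 to 7.53 in WT with overlap. Cthrc1 read 4.64 to 5.01 in KO air and 5.25 to 5.53 in exposed KO, and its difference of -1.005 ± 0.18 was made of -0.46 in WT and 0.55 in KO. None of these KO changes passed the adjusted threshold. Gbp10 lost the call of its difference in 6 of 20 fits that left out 1 array, and its KO change was -0.32 without KO 0 ppm replicate 1.

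The same difference was computed at the lower doses in a fit of all 40 WT and KO arrays, where the doses share their air arrays. At 10 ppm 866 genes were called (7.59%), 511 above 0 (4.48%) and 355 below (3.11%). At 40 ppm 1590 were called (13.9%), 811 above 0 (7.11%) and 779 below (6.83%), and at 120 ppm 1305 (11.4%), 804 above 0 (7.05%) and 501 below (4.39%). The antiviral effectors tested had a median difference of 2.44, 2.00 and 2.24 at 10, 40 and 120 ppm, and Cxcl10 stood at 4.64, 4.20 and 4.86. The DNA replication list stood at 0.61, 0.57 and 0.71, and the club cell list at -0.30, -0.94 and -0.54. The change in the difference from 10 to 120 ppm was called for 20 genes (0.175%), 18 up (0.158%) and 2 down (0.0175%). Ankrd37, a target of hypoxia-inducible factor, stood at 0.34, 1.14 and 2.18 (change 1.84 ± 0.32, adjusted p = 0.014), Fst at 0.73, 2.69 and 2.76, and Ntrk2, a neurotrophin receptor, at 0.48, 1.40 and 1.98. Cyp1a1 stood at -0.59, -2.87 and -2.84 (change -2.25 ± 0.48, adjusted p = 0.032). The 20 calls ranged from 1 without KO 120 ppm replicate 2 to 55 without WT 10 ppm replicate 5. From 40 to 120 ppm 1 gene was called (0.00877%), Pnma1, at -0.81 and -0.05.

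**Figure D5:**
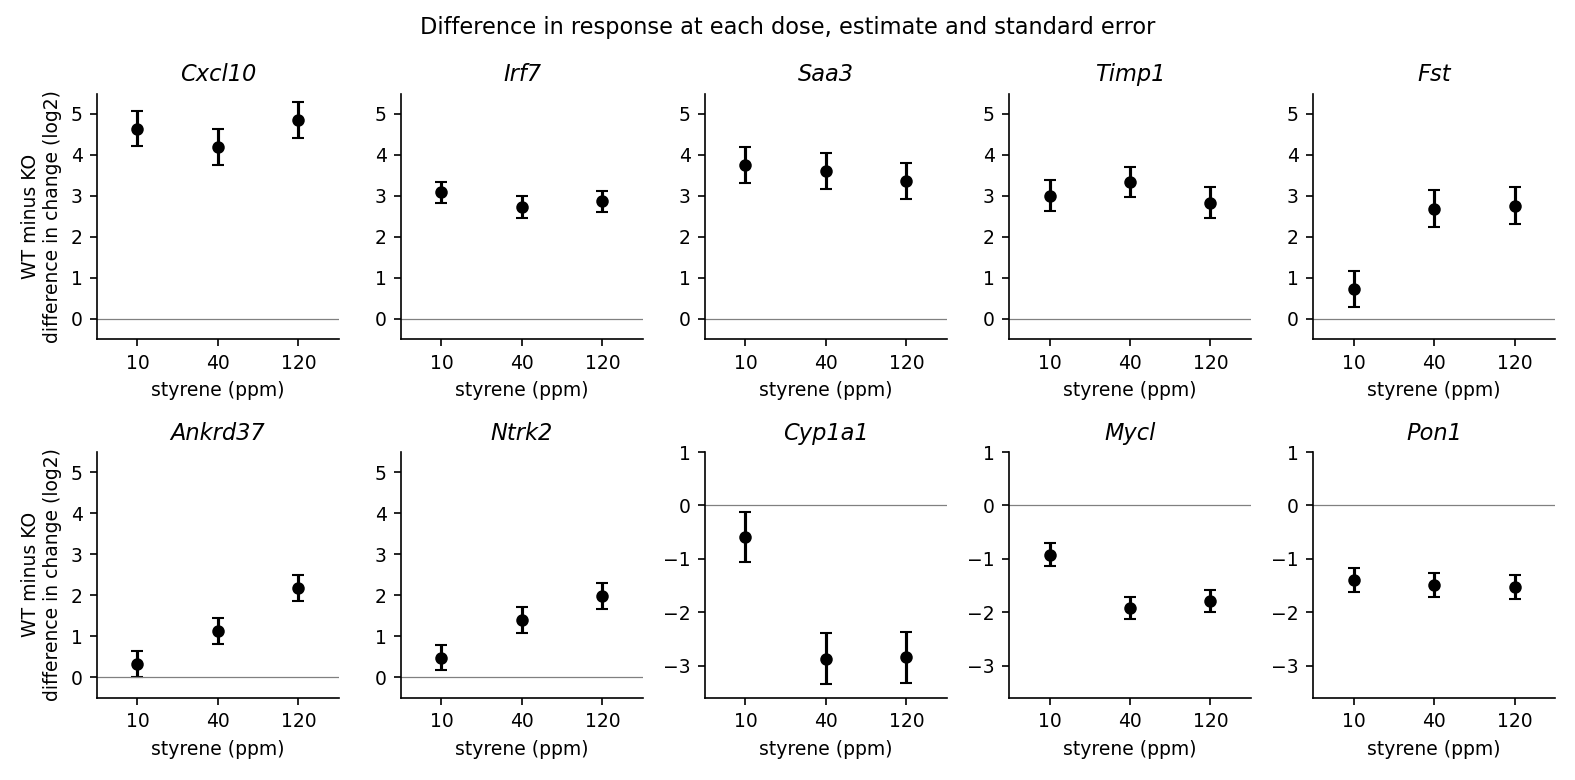
WT minus KO difference in the change from 0 ppm (vertical axis, log2) at 10, 40 and 120 ppm (horizontal axis) for 10 genes; points are estimates from 40 arrays and bars are standard errors. Cxcl10, Irf7, Saa3, Timp1 and Pon1 show a similar size at the 3 doses, whereas Fst, Ankrd37, Ntrk2 and Cyp1a1 are nearer to 0 at 10 ppm.

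In the humanized TG mice the 120 ppm response was compared in a fit of 30 arrays. The WT minus TG difference was called for 1158 genes (10.2%), 476 above 0 (4.17%) and 682 below (5.98%). It shares the WT arrays with the difference from KO, so the values stand side by side only: 4.93 for Cxcl10 (4.86 against KO), 4.12 for Mx1 (4.05), -3.99 for Cyp1a1 (-2.84) and -0.58 for Dbp (-1.94). The KO minus TG difference was called by limma for 0 genes (0.0%), with 1242 at an unadjusted p under 0.05 and a lowest adjusted p of 0.0736. The TG change itself was called for 99 genes (0.868%), 91 up (0.798%) and 8 down (0.0701%). The array TG 0 ppm replicate 4 stood apart, with a median of 3.84 against 4.07 to 4.13 in its group, and both splits turned on it. Without it 60 genes were called up and 57 down in TG, and the WT minus TG difference was above 0 for 884 and below for 690. With arrays centred on their medians the counts were 40 and 39 in TG, and 748 and 516 for WT minus TG. For KO minus TG, leaving out TG 0 ppm replicate 5 gave 13 calls, the most of any array left out.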

How the data were processed

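Whole-lung RNA of 4 groups of 5 arrays was used, and 60 more arrays entered only the filter and the side comparisons. Per the submitters' processing notes, the deposited log2 values were made with RMA and Partek; their versions and settings are not given there. The table held 45037 probe sets, of which 28898 carried 1 symbol, 551 several and 15588 none in the supplied annotation. Each of 17097 genes was represented by its brightest probe set, by the mean of the 80 arrays, and was tested when above the median of the table (4.28) in at least 5 of 80 arrays. The linear model of group means used limma 3.58.1 under R 4.3.3, with Benjamini-Hochberg adjustment over 11406 genes and a threshold of 0.05. The number of arrays limits the precision: the median SE of a difference was 0.1173. P-values measure the spread between these arrays.

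The members and lists were chosen with earlier results of these data known. Named genes were Cyp2f2, the 15 largest called differences in each direction, the 10 called genes with the largest KO change, up to 4 members of each list by p, and the 5 largest in each direction of the dose and TG contrasts; others are stated as named after their values were seen, or complete a list or an earlier statement. On simulated data for 11406 genes, with changes of 0.5, 1 and 2 log2 units planted in 67, 67 and 66 of them, 61.2, 98.5 and 98.5% were recovered for the difference in response, with 4.97% of calls false. The noise was drawn independently for each gene and array, and far fewer genes were changed than the 1520 called. These shares therefore do not measure the error rate of the real calls. Alternatives were the number of arrays, centring, quantile normalization, both filters, averaging of probe sets, a trended robust prior, a replicate block, and leaving out arrays.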

Additional observations from a re-analysis of the deposited data

Results flagged for a closer look

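In 10 of 120 groups of 5 arrays tested (26 genes and 4 gene lists), 1 array stood far from the others, where chance gives about 1 in 20. The squamous markers averaged 8.55 in WT 0 ppm replicate 1 and 4.97 in WT 120 ppm replicate 4, and the skeletal muscle markers 5.80 in WT 0 ppm replicate 1 and 4.87 in KO 0 ppm replicate 4. The club cell markers averaged 10.71 in KO 0 ppm replicate 4. Among single genes, the arrays that stood apart were WT 0 ppm replicate 1 for Cxcl10 at 4.29, KO 0 ppm replicate 3 for Pole at 3.27 and WT 120 ppm replicate 1 for Pon1 at 8.62. The same held for KO 120 ppm replicate 4 for Timp1 at 6.69 and KO 120 ppm replicate 1 for Map3k6 at 5.63. Timp1 and Map3k6 kept their calls in all 20 fits that left out 1 array.

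The response to 120 ppm differed between WT and KO for 1520 genes and between WT and TG for 1158, each by the interaction contrast in limma.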

How the results depend on the processing

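The number of differences called (1520) was 1305 with all 40 WT and KO arrays, 1414 with centred arrays, 1540 after quantile normalization, 1370 with no filter, 1437 with the stricter filter, 1507 with probe sets averaged and 1570 with a trended robust prior. At least 1.5-fold were 549, with 367 above 0 and 182 below, and 497 for the change in WT. Leaving out arrays gave 1186 to 1805 differences, 758 to 1127 above 0 and 428 to 678 below, 2313 to 3075 changes in WT and 0 to 0 in KO. The lowest counts of differences came without WT 0 ppm replicate 1 and KO 0 ppm replicate 1 together, a choice made after seeing the data. Of those 1186 calls 1110 were shared with the 1520. The other contrasts gave 646 to 1034 at 10 ppm, 1330 to 1699 at 40 ppm, 1 to 55 from 10 to 120 ppm, 1 to 1 from 40 to 120 ppm, 877 to 1574 for WT minus TG and 0 to 13 for KO minus TG. Of the named genes followed, none reversed. The median difference over all genes (0.0115) became -0.0095 with centred arrays and -0.0134 after quantile normalization. The WT minus TG split did reverse. It went from 476 above 0 and 682 below to 884 and 690 without TG 0 ppm replicate 4, and to 748 and 516 with centred arrays. With centred arrays 1 gene was called for KO minus TG. The change in TG gave 117 calls without TG 0 ppm replicate 4; both TG alternatives were also chosen after seeing the data. Of 121 named genes, 112 kept their call in all 20 fits that left out 1 array.

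Replicate numbers were not taken as pairing the samples: the deviations of 30 same-numbered pairs correlated at -0.353 to 0.286, 11 of them above 0.1, and 4 of 20 arrays correlated best with their own number. With a replicate block 1364 differences were called, 842 above 0 and 522 below, and 2 for KO minus TG. Genes near the bottom of the scale limit what a fall can show.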
